A study of Mus musculus with 7 samples.

Results

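Svs-rich secretory epithelial cells of the mouse seminal vesicle were defined by their RNA. A cell was counted among them when *Svs2*, *Svs4*, *Svs5* and *Svs6*, genes for seminal vesicle secretory proteins, together held at least 30% of its UMIs (unique molecular identifiers, the barcodes by which each captured RNA molecule is counted once). The cell also had to hold at least 500 genes, at least 3000 UMIs, at most 10% of UMIs on mitochondrially encoded genes and under 0.5% of UMIs on *Tgm4* and *Pbsn*, genes of prostate-like secretory cells. Under this rule 9614 of the 53352 deposited cells were Svs-rich, and they came from 21 of the 23 mice. Because these 6 genes chose the cells, their levels are given as a description, and the comparisons concern the other genes.

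The seminal vesicle is a male accessory gland whose growth and secretion depend on androgen. Its columnar epithelium secretes the Svs proteins, which are cross-linked after ejaculation by transglutaminase 4 from the prostate to form the copulatory plug, together with protease inhibitors, small secreted proteins of the Pate family and fructose made from glucose by aldose reductase and sorbitol dehydrogenase. A cell of this kind leads its proteins into the endoplasmic reticulum (ER) through the Sec61 channel, cuts their signal peptides, forms their disulfide bonds and passes them through the Golgi into secretory vesicles.

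All mice were wild-type males, and dissociated tissue was captured in droplets with a 3′ single-cell kit. The aging pool held 10 C57BL/6J mice on chow, run together under sample tags, with 2 mice at 3 months, 2 at 20 months, 2 at 28 months, 2 at 20 months with rapamycin and 2 at 28 months with rapamycin. The diet pool held 8 FVB/NJ mice of 3 months, 2 each on the control diet (AIN-93G), a high fat diet, a low protein diet and caloric restriction. A further 3 FVB/NJ mice of 3 months, were each run as a single library (control, high fat or low protein diet). From weaning, mice received the control, low protein or high fat diet for 9 weeks. Per the paper, restricted mice were housed singly and given a fixed part of the AIN-93G mass that a freely fed mouse ate. The remaining 2 libraries, of a young (3 months) and an old (18 months) FVB/NJ individual on the control diet, held no cell with an Svs share of 30%, and 0 of their 2171 and 3536 cells with at least 3000 UMIs allow a share of up to 0.138% and 0.0848%. Each pool holds 1 strain, so strain, chow and pool cannot be told apart, and each group has 2 mice in a pool, so every test below rests on few animals.

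The 3 single libraries stood apart from the pools. Svs-rich cells made up 99.3% (95% Wilson interval 98.9 to 99.5), 99.5% (99.2 to 99.7) and 99.7% (99.4 to 99.8) of their cells with at least 3000 UMIs, for the control, high fat and low protein mouse. In the aging pool this share ran from 9.78% (7.11 to 13.3) in 28-month mouse 1 to 38.7% (34.7 to 43.0) in 3-month mouse 2, with a median of 20.2%. In the diet pool it ran from 4.09% (2.49 to 6.63) in caloric restriction mouse 2 to 21.5% (16.5 to 27.5) in low protein mouse 1, with a median of 19.0%, and the other caloric restriction mouse was next lowest at 13.99% (11.5 to 16.9). These intervals, like every floor below, cover counting error only. The shares depend on the limit of 3000 UMIs, which is also part of the rule. Of all filtered cells at any depth, 2787 of 4211, 2625 of 3845 and 3002 of 3672 were Svs-rich in the control, high fat and low protein single library.

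The number of Svs-rich cells behind each value differed widely. The single libraries held 2787, 2625 and 3002 such cells, whereas mice of the aging pool held between 14 and 203 and mice of the diet pool between 15 and 119. The smallest groups were 14 cells in 20-month rapamycin mouse 1, 15 in caloric restriction mouse 2 and 16 in control pool mouse 2. The median UMI count of an Svs-rich cell per mouse ran from 35486 to 59166 in the aging pool, from 20489 to 44505 in the diet pool and from 10798 to 15382 in the single libraries. Single-library cells were thus shallower than those of every pool mouse, and their median number of detected genes was 813 to 1070 against 1575 to 3249 in the pools. Of 9607 distinct barcodes of Svs-rich cells, 7 occurred in more than 1 library, 6 of them among the 3 single libraries.

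The cells carried markers of epithelium that the rule had not used. Levels, here and below unless stated, are CPM, the UMIs of a gene scaled to a total of 1000000 per mouse after 18 secreted products had been left out. They are not divided by gene length, since a 3′ UMI stands for 1 RNA end. *Epcam*, an adhesion molecule of epithelia, was found at 656 ± 144 CPM (SD, 21 mice). *Krt8*, *Krt18*, *Cldn3* and *Cldn7*, keratins and tight junction claudins of epithelia, had mean levels of 2108, 3482, 1044 and 450 CPM. In cells of the same pools with at least 10 UMIs of non-epithelial markers, the 5 levels were 31.3, 57.3, 86.8, 20.8 and 12.3 CPM. This contrast does not tell luminal from other epithelial cells, and the paper names *Krt8* among its basal cell markers. The basal keratin *Krt5* had a mean of 58.7 CPM, against 547 in basal-marked cells. Another basal keratin, *Krt17*, had a mean of 330 CPM and was the most abundant of 6 basal markers. Together these markers summed to 146 to 1930 CPM in the aging pool, 292 to 959 in the diet pool and 37.4 to 62.2 in the single libraries. 

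The boundary of the population lay in a thinly filled range. Of the cells that met the other limits, 39 had an Svs share between 30% and 35% and 34 a share between 25% and 30%, whereas 9575 lay above 35%, 176 between 5% and 25% and 4252 under 5%. The 39 cells just inside had a median of 10687 UMIs outside the 18 products, and the 34 just outside a median of 5895. A further 18 cells had an Svs share of at least 30% but passed the limit on *Tgm4* and *Pbsn*. Svs RNA was also found in cells of other types. Its median share per mouse in non-epithelial cells was 0.653% to 0.919% in the aging pool and 0.223% to 0.322% in the diet pool, at median depths of 4215 to 5868 and 3595 to 4002 UMIs.

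The products *Svs2*, *Svs4*, *Svs5* and *Svs6*, lie close together on chromosome 2, and the 250 bases before the RefSeq starts of *Svs5* and *Svs6* are shown because *Svs5* held the largest share of UMIs among the products and *Svs6* a far smaller one, and these windows are near copies. The windows are chr2:164332515-164332764 for *Svs5* and chr2:164316501-164316750 for *Svs6* (GRCm38.p6, plus strand, upstream of the RefSeq start). The last 25 bases of the *Svs5* window overlap the start of its GENCODE gene, and the *Svs6* window ends just before its own. The RefSeq starts of *Svs2* and *Svs4* also lie inside the GENCODE genes. They are printed 5′ to 3′, with capitals for TATAAA, the letters of a TATA box, and for TGTTCT, which is AGAACA read on the opposite strand, the letters of 1 arm of a steroid hormone response element.
Svs5: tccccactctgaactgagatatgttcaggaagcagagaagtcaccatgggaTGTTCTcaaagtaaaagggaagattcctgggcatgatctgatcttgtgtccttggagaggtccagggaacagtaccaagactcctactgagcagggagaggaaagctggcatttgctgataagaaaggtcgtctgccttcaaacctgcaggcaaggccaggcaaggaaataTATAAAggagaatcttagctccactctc
Svs6: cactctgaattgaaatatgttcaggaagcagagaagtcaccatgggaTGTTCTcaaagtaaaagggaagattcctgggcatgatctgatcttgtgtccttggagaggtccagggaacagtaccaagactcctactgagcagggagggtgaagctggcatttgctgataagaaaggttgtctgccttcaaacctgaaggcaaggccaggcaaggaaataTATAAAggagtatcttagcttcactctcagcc

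With a shift of 4 bases, the windows of *Svs5* and *Svs6* were identical at 237 of 246 positions (96.3%), whereas the other pairs among the 4 genes were identical at 31.8% to 39.2%. TATAAA began 28 bases before the start in *Svs5* and 32 bases before it in *Svs6*, and also 28 bases before the start of *Svs4*, whose sequence is not shown. In *Svs2* the same letters lay 205 and 236 bases before the start. TATAAA on the sense strand starting 40 to 20 bases before the start was found in 1.99% of 32851 RefSeq windows of the same length, and anywhere on either strand in 12.4%. AGAACA lay 199 bases before the start of *Svs5* and 203 bases before that of *Svs6*, and 16.1% of all windows held it on either strand. Of the 18 products, 13 had a RefSeq window, of which 6 held TATAAA (*Svs2*, *Svs3a*, *Svs3b*, *Svs4*, *Svs5* and *Svs6*) and 8 held AGAACA (*Svs1*, *Svs3a*, *Svs3b*, *Svs5*, *Svs6*, *Sva*, *Ceacam10* and *Pate6*). These are matches of letters and not binding sites.

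The 18 products together held 64.3% to 78.6% of the UMIs of Svs-rich cells in the diet pool, 68.1% to 77.1% in the aging pool and 83.7% to 84.5% in the single libraries. *Svs5* was the largest share, with a mean of 27.2% of UMIs over 21 mice. *Svs4* followed with 14.9%, *Svs2* with 10.7% and *Svs6* with 4.81%. Outside the rule, *Pate4* held 3.68%, *Pate14* 3.03%, *Sva* (seminal vesicle antigen) 2.22%, *Ceacam10* 2.18% and *Spink1*, a trypsin inhibitor of the Kazal type, 1.68%. *Spinkl*, *Svs3a*, *Svs3b* and *Svs1* held 1.12%, 1.06%, 0.987% and 0.824%. Reads of near-identical members, such as *Svs3a* with *Svs3b*, may have been lost or split by the counting, so the division between such genes is uncertain.

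**Figure D1:**
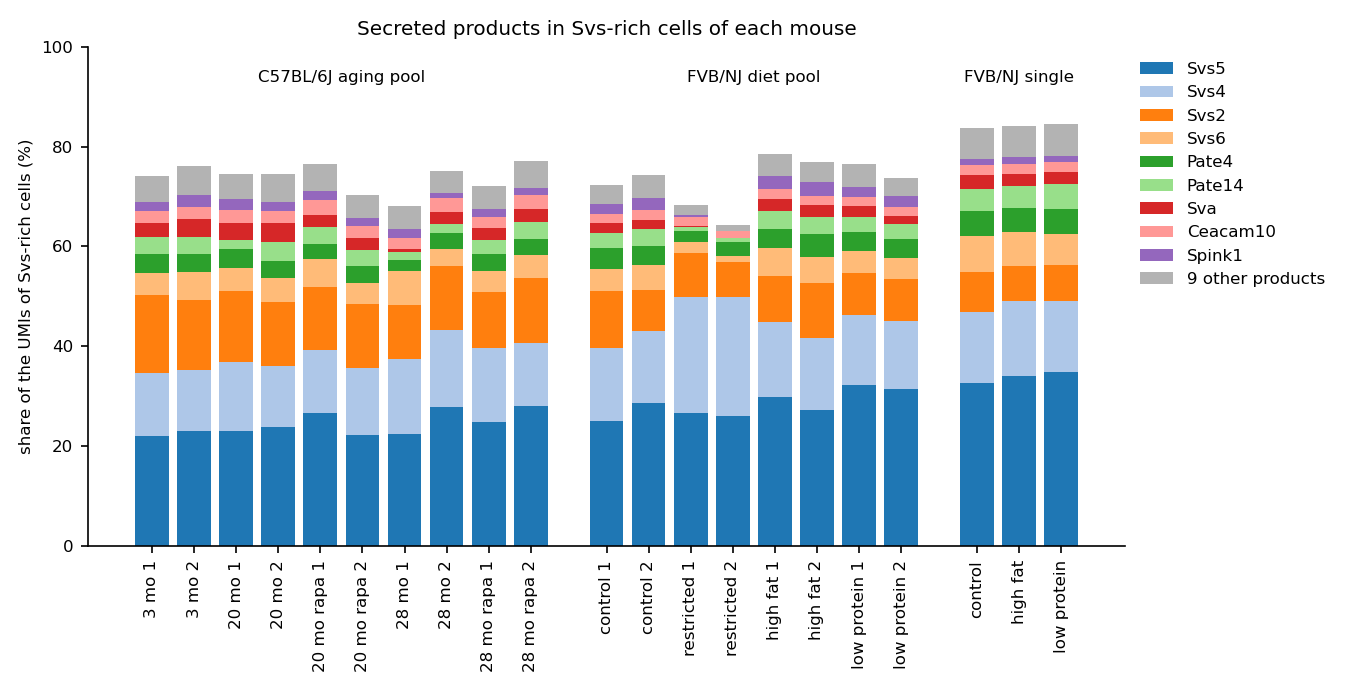
Share of the UMIs of Svs-rich cells held by each secreted product, in percent (vertical axis), in a stacked bar for each of 21 mice. The bars of both caloric restriction mice show a wider band of *Svs4* and narrow bands of *Svs6*, *Pate14* and *Sva*, and the 3 single libraries reach the highest totals (83.7% to 84.5%).

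The make-up of the products differed between library sets. *Svs2* held 10.6% to 15.5% of UMIs in the aging pool (median 12.8%), 6.99% to 11.5% in the diet pool (median 8.70%) and 7.02% to 7.94% in the single libraries. *Svs5* ran the other way, with 22.1% to 27.9% (median 23.4%), 24.9% to 32.2% (median 27.8%) and 32.5% to 34.8%. Single libraries were above every pool mouse for *Svs5*, while for *Svs2* they lay within the range of the diet pool. *Sva* was low in 28-month mouse 1 at 0.543%, where the other 9 mice of the aging pool had 2.30% to 3.76%.

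The shares of the rule's genes under caloric restriction are given beside the controls. *Svs4* held 23.2% and 24.1% of UMIs in the 2 caloric restriction mice, against 14.7% and 14.5% in the control pool mice and 14.3% in the control single library. *Svs6* held 2.12% and 1.08%, against 4.31%, 5.05% and 7.37%. *Svs5* held 26.5% and 25.9%, within the control range of 24.9%, 28.5% and 32.5%. These genes chose the cells and their shares depend on each other, so the values are a description with no test.

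Shares of several products outside the rule were low under caloric restriction. *Sva* held 0.0693% and 0.105% of UMIs in the restricted mice, against 2.07%, 1.95% and 2.79% in the control mice. *Pate14* held 0.895% and 0.804%, against 2.90%, 3.36% and 4.49%. *Spink1* held 0.334% and 0.167%, against 1.97%, 2.46% and 1.24%. The restricted mice lay below all 3 control mice for each of these genes, and the same held for *Svs3a* (0.173% and 0.0731%, against 0.954%, 1.04% and 1.12%) and *Svs1* (0.249% and 0.0933%, against 0.589%, 0.761% and 1.17%).

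Once only the 4 Svs genes of the rule were left out of the depth, the remaining 14 products could be tested across all genes with edgeR's quasi-likelihood test on UMIs summed per mouse. In that fit 146 of 7078 genes passed an adjusted p (Benjamini-Hochberg) of 0.05 under caloric restriction, and 7 of the 14 products fell. *Sva* fell by 5.10 on the log2 scale (SE 0.233, adjusted p = 1.87e-09, edgeR) and *Pate14* by 2.34 (SE 0.161, adjusted p = 1.55e-10, edgeR). *Pate4*, *Defb42* (a beta-defensin), *Spink11*, *Spink1* and *Svs3a* had log2 changes of -1.15, -6.14, -4.09, -3.55 and -3.46, with edgeR adjusted p from 3.76e-07 to 0.0242. *Svs3b*, *Svs1*, *Spinkl* and *Ceacam10* did not pass, at log2 changes of -1.999, -2.40, -1.57 and -0.65 (adjusted p = 0.0734, 0.108, 0.149 and 0.205, edgeR). In the comparisons of high fat diet, low protein diet, age and rapamycin, 0 of the 14 passed. In the strain comparison *Spink8* (2.27) and *Defb42* (1.16) were higher in C57BL/6J (adjusted p = 1.19e-05 and 0.0178, edgeR). *Pate6*, *Pate4*, *Pate14*, *Sva*, *Spink11*, *Spinkl*, *9530003J23Rik*, *Defb42*, *Ceacam10* and *Svs1* were higher in the single libraries than in the diet pool (adjusted p from 2.36e-11 to 0.04996, edgeR).

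With the products set aside, the RNA of Svs-rich cells was led by a few genes. *Cd52*, a small surface glycoprotein that the male tract sheds onto sperm (ENSMUSG00000000682, chr4:134082448-134095082, GRCm38), had a mean of 19744 ± 2890 CPM (SD, 21 mice). It was found at 14944 to 22197 in the aging pool, 13031 to 24660 in the diet pool and 20699 to 23181 in the single libraries, so that the sets overlapped. *B2m*, the light chain of MHC class I, followed at 11716 ± 4107 CPM. Next came the histone gene *H3f3b* (8266 ± 1535), the nuclear RNA *Malat1* (7442 ± 1445), ferritin heavy chain *Fth1* (5607 ± 2082) and the metallothionein *Mt1* (5464 ± 2822). *Cdo1*, cysteine dioxygenase, which starts the breakdown of cysteine towards taurine, had 4025 ± 1027, the translocon subunit *Ssr4* 3322 ± 516 and the ER chaperone *Hspa5* 3037 ± 1508. The other genes among the 20 of highest mean were *Actg1*, *Tmsb4x*, *Tpt1*, *Eef1a1*, *Ubb*, *Hspb1*, *Ftl1*, *Krt18*, *Gm10076*, *Actb* and *Itm2b*.

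High abundance and enrichment were different properties of these genes. The ratio of Svs-rich cells to the other filtered cells of the same mouse was taken for each of the 18 pool mice, with 5 CPM added to both levels. It is a description, since the cells were chosen by their RNA. The median ratio was 30.3 for *Cd52* and 33.3 for *Cdo1*, but 8.11 for *B2m* and 3.08 for *Krt18*, and it was 0.639 for *Malat1*, 0.470 for *Fth1* and 0.367 for *Mt1*. Of 1309 genes with a mean of at least 100 CPM, 29 (2.22%) had a median ratio of at least 10. These ratios and levels depend on the depth used. With only the 4 Svs genes left out, 13 genes reached 10, the ratio of *Cd52* was 18.8 and that of *Cdo1* 19.9, and the mean level of *Cd52* was 11371 CPM.

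*Dnase2b*, an acid endonuclease related to DNase II (ENSMUSG00000028185, chr3:146580985-146615596), had the highest median ratio, 60.6, with 15.3 to 196 among mice, and 38.1 with only the 4 Svs genes left out. Its level was 990 to 2700 CPM in the aging pool (median 2136), 168 to 2181 in the diet pool (median 1520) and 2359 to 2634 in the single libraries. Pooled over mice, it stood at 1942 in Svs-rich cells, 9.19 in prostate-like cells, 26.1 in basal-marked cells and 13.2 in non-epithelial cells. *Cdo1* stood at 4233, 19.7, 327 and 38.8 in the same 4 classes, and *Nucb2*, a calcium-binding protein of the Golgi and secretory route (chr7:116504369-116540584), at 2508, 28.7, 94.5 and 71.7. Both were therefore low in prostate-like cells, the other secretory type of these pools. The prostate-like class held 264 cells, the basal-marked class 992 and the non-epithelial class 2548.

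Other genes with a high ratio covered several functions. *Shisa4* (chr1:135371057-135375237; median ratio 35.0) and *Orm3*, of the orosomucoid family (chr4:63356162-63359511; 33.6), followed *Dnase2b*. *Bpgm*, bisphosphoglycerate mutase, which branches off glycolysis, had 26.8, and *Ggt1*, a surface enzyme that cleaves glutathione, had 18.03. *Qsox1*, a secreted sulfhydryl oxidase, had 17.4 (894 CPM in Svs-rich cells, 28.9 in prostate-like and 55.0 in basal-marked cells). *Phyh*, a peroxisomal enzyme of branched-chain fatty acid oxidation (chr2:4919019-4938730), had 14.4, and *Ero1lb*, an ER oxidase, had 11.6. *Elf5*, an Ets-family transcription factor of secretory epithelia, had 12.7, with 378 CPM in Svs-rich cells, 72.5 in prostate-like cells and 29.7 in basal-marked cells. Of the 25 genes with the highest ratio, only *Doxl2*, a diamine oxidase-like gene (median 21.2), was not higher in all 18 mice, since caloric restriction mouse 2 had 0 UMIs of it. The others reported here were *Gm1673*, *Lrrc26*, *Wfdc15b*, *Dkkl1*, *Pate8*, *Smpx*, *Tspan8*, *Serpine2*, *Slco1a5*, *Folr1*, *Slc4a8*, *Cd52*, *Cdo1* and *Nucb2*.

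**Figure D2:**
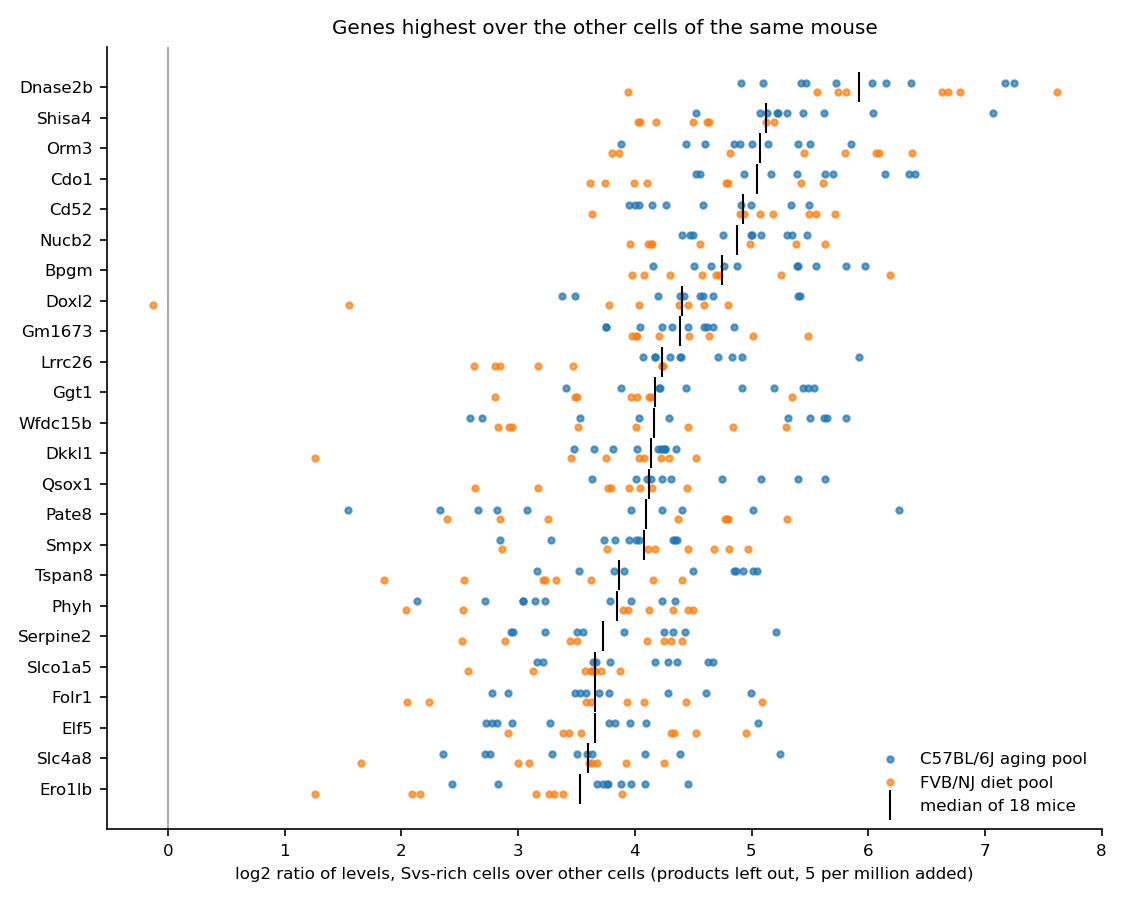
Log2 ratio of the level in Svs-rich cells to that in the other filtered cells of the same mouse (horizontal axis, 5 CPM added) for 24 of the 25 genes of highest median ratio. Each point is 1 of 18 pool mice, coloured by pool, and each bar is the median, which runs from 60.6-fold for *Dnase2b* to 11.6-fold for *Ero1lb*.

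Among the gene lists, the entrance of the secretory route had higher ratios than its folding steps. Of 4931 genes with at least 20 CPM, 631 (12.8%) had a median ratio of at least 2 and 360 (7.3%) a ratio of at most 0.5. In the list for ER translocation and signal peptide removal, 12 of 21 genes reached 2, with a median ratio of 2.20, and the summed level was higher in 18 of 18 mice. *Ssr4* (4.51), the signal peptidase subunit *Sec11c* (4.48) and *Sec61b* (3.28) were examples. In the list for ER folding 6 of 24 reached 2, with a median of 1.23, and its most abundant gene *Hspa5* had 1.23. The list for the unfolded protein response had 3 of 17 and a median of 1.21, that for glycosylation 9 of 22 and 1.63, and that for vesicle transport 11 of 35 and 1.52. *Bhlha15* (Mist1), a transcription factor of secretory cells, had 3.99, and the vesicle GTPase *Rab3d* had 2.66.

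Amino acid supply had the largest summed ratio of the lists. Its 16 genes with at least 20 CPM included 10 with a ratio of at least 2 (median 2.40), and the summed level was 4.38-fold higher, in 18 of 18 mice. *Cdo1*, the most abundant, dominates this sum. *Asns*, asparagine synthetase, had a ratio of 3.38, *Psat1* of the serine pathway 3.15 and the neutral amino acid carrier *Slc7a5* 2.07, while the glutamine carrier *Slc1a5* stood at 0.350. Among other secreted proteins 10 of 18 genes reached 2, with *Nucb2* as the most abundant. In the list for hexose and fructose metabolism 4 of 13 did so, among them *Akr1b3*, aldose reductase (3.25), while sorbitol dehydrogenase *Sord* stood at 1.75.

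Other lists were low in Svs-rich cells relative to the rest of the tissue. The polyamine list had a summed ratio of 0.688 and was lower in all 18 mice, with *Odc1*, ornithine decarboxylase, at 0.383 and spermine synthase *Sms* at 0.328. In the list of androgen response genes 1 of 13 reached 2 and 5 stood at or under 0.5, with a summed ratio of 0.621 that was below 1 in 18 mice. *Foxa1*, a transcription factor of luminal epithelium, had a ratio of 0.507. Cytokines and growth factors, with *Hbegf* as the most abundant, had a summed ratio of 0.108 and cell cycle genes one of 0.532, and the proliferation gene *Mki67* had a mean of 2.89 CPM. *Gata2* (3.26) and *Elf5* were examples of transcription factors with a high ratio. *Ern2*, *Gcnt3*, *Foxa2*, *Cftr*, *Ccl28* and *Rnase10* were listed at 0.

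**Figure D3:**
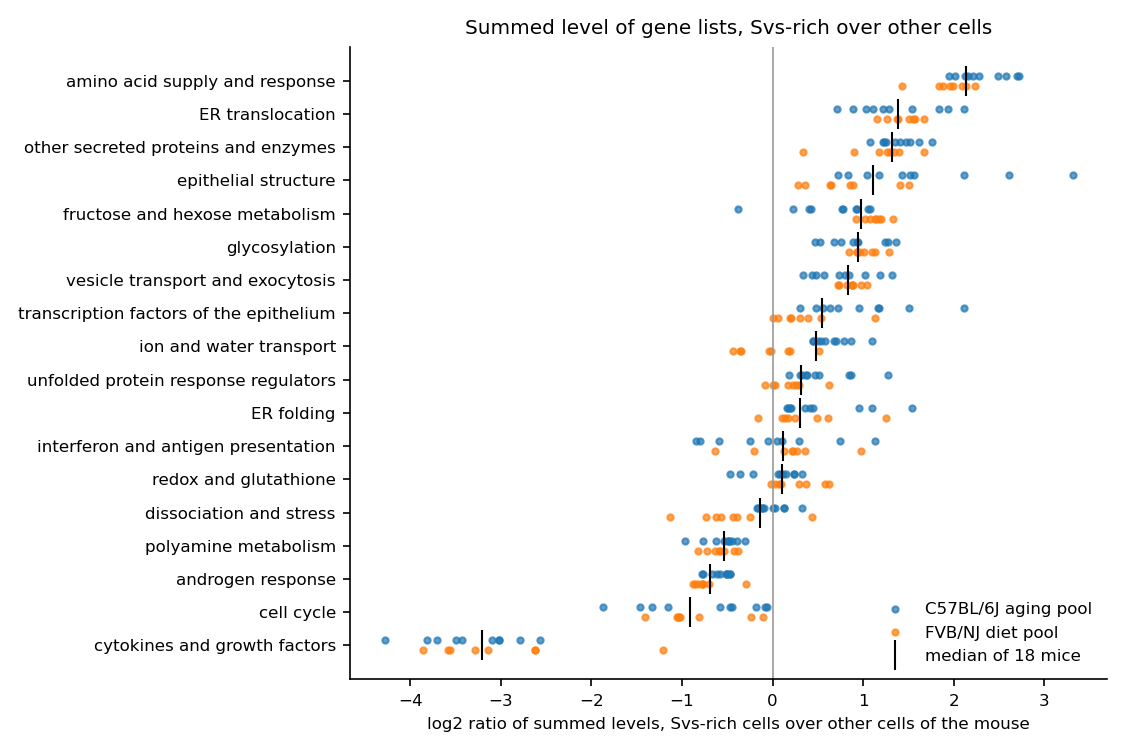
Log2 ratio of the summed level of each of 18 gene lists in Svs-rich cells to that in the other filtered cells of the same mouse (horizontal axis). Each point is 1 of 18 pool mice and each bar the median, which is highest for amino acid supply (4.38-fold) and lowest for cytokines and growth factors (0.108).

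Each list of markers of other cell types had a median summed ratio under 1, though not in every mouse. The summed ratio was 0.0595 for fibroblast markers, 0.0208 for smooth muscle, 0.0407 for endothelium, 0.0496 for macrophage and 0.482 for basal markers, the last above 1 in 2 of 18 mice. For red cell markers it was 0.541, and above 1 in 8 mice, with log2 ratios of 8.05 in control pool mouse 2 and 8.37 in high fat pool mouse 1. For Schwann cell markers it was 0.298, and above 1 in 6 mice, and for epididymis markers 0.238, and above 1 in 2. That of prostate-like markers was 0.0769, which the rule's limit on *Tgm4* and *Pbsn* sets in part. The share of Svs-rich cells with at least 2 UMIs of 35 such marker genes was 22.8% to 51.4% in the aging pool, 11.9% to 53.3% in the diet pool and 2.20% to 2.78% in the single libraries. This share depends on depth. Median UMIs outside the products were 1553 to 2331 per cell in the single libraries and 4393 to 13609 in the pools. Hemoglobin RNA separated mice of the diet pool, with *Hbb-bs* as its most abundant gene. Its sum was 3102 CPM in control pool mouse 2, 3091 and 3443 in the caloric restriction mice, 3584 in high fat pool mouse 1 and 832 in low protein pool mouse 1, while no other mouse exceeded 46.5. Smooth muscle markers summed to 393 and 130 in the caloric restriction mice and 152 in control pool mouse 2, and to at most 34.9 in the other diet pool mice. Doublets were not removed, and the part of such RNA in the levels of other genes was not tested.

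Svs-rich cells also varied within a mouse. In each of 16 mice with at least 40 such cells, the cells were split at the mouse's median Svs share, as a description. Cells at or above the median, here called above it, were compared with those below it. Cells above it were deeper (median 50810 against 25420 UMIs), had more UMIs outside the products (10912 against 7073) and a lower mitochondrial share (0.818% against 1.38%), and their Svs share was 62.5% against 50.1%. Of 1309 genes with at least 100 CPM, 64 (4.89%) were higher in such cells in all 16 mice and 31 (2.37%) were lower in all 16.

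Several genes with a high ratio to other cells were also higher in cells above the median, a description since both comparisons sort cells by Svs share. *Dnase2b* was higher by a median log2 of 0.88, *Phyh* by 0.80, *Lrrc26* by 0.76 and *Ppa1*, a pyrophosphatase, by 0.72, each in 16 of 16 mice. *Asns* (0.61), *Bpgm* (0.52), *Nucb2* (0.49) and *Cd52* (0.44) were also higher in 16 mice, and *Orm3* (0.73), *Shisa4* (0.67) and *Ggt1* (0.64) in 15. On the lower side, *Klf4* (-0.75), *Chd9* (-0.99) and *Foxa1* (-0.57) were lower in all 16. *Defb1*, *Tgm4*, *Defb50*, *Cd74* and *Pbsn* were also on the lower side. *Ppa1* was chosen after its values were seen. The summed amino acid list was 1.28-fold higher in cells above the median (15 mice) and the vesicle list 1.19-fold (16 mice), while cytokines and growth factors were at 0.704. Marker sums of other cell types were at 0.427 (macrophage), 0.448 (fibroblast), 0.440 (prostate-like) and 0.633 (basal), while red cell markers were at 2.16. The part of these markers in the differences was not tested.

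Caloric restriction was compared with the control diet to ask how the cells respond to restricted food. The 3 diets were fitted together over the 11 FVB/NJ mice, with library set as a term, so they share their control mice. Of 6498 genes tested, 144 (2.22%) passed an adjusted p of 0.05 in edgeR's quasi-likelihood test, with 51 higher (0.785%) and 93 lower (1.43%). The median log2 change of all genes was 0.01. When libraries were scaled by their totals alone, the split was 67 higher and 65 lower. The 4 pool mice of this comparison fitted alone gave 23 (5 higher and 18 lower, 18 of them shared), and the fit without the control single library alone gave 59.

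Several of the most characteristic genes of Svs-rich cells were among those that fell. *Phyh* was found at 198 and 282 CPM in the caloric restriction mice, 1217 and 1302 in the control pool mice and 2332 in the control single library. The groups did not overlap, and the log2 change was -2.62 (SE 0.18, adjusted p = 1.17e-11, edgeR). *Sval2*, seminal vesicle antigen-like 2 (ENSMUSG00000014104, chr6:41852989-41864413), was found at 6.12 and 7.63 CPM, against 70.6, 152 and 220. Among the genes that passed, outside the products and with a mean of at least 20 CPM, it had the largest fall, with a log2 change of -4.13 (SE 0.45, adjusted p = 2.27e-06, edgeR). Within the 4 pool mice the change was -3.88 (adjusted p = 0.00605, edgeR). In caloric restriction mouse 2, 3 counts would be 22.9 CPM, so the size of the fall is uncertain.

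*Doxl2* (chr6:48974963-48978746) was found at 11.2 CPM in caloric restriction mouse 1 and at 0 UMIs in mouse 2, where 3 counts would be 22.9 CPM. The control mice had 98.9, 116 and 219, so the groups did not overlap, and the log2 change was -3.49 (SE 0.42, adjusted p = 1.32e-05, edgeR). *Ero1lb* was found at 53.0 and 38.2 CPM, against 191, 116 and 288, a change of -2.08 (SE 0.27, adjusted p = 1.79e-05, edgeR). The restricted mice were again the lowest, as they were for *Orm3* (94.8 and 91.6, against 325, 330 and 535). Its log2 change was -2.002 (adjusted p = 1.79e-05, edgeR). *Bpgm* changed by -1.03, *Ggt1* by -1.21, *Slc4a8* by -1.30, *Qsox1* by -0.84, *Serpine2* by -0.89 and *Cd52* by -0.52, all past the threshold.

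Other characteristic genes did not pass the test. *Dnase2b* was found at 583 and 168 CPM, against 1308, 2122 and 2634, but its log2 change of -2.12 did not pass (adjusted p = 0.111, edgeR). *Cdo1* (-0.69), *Nucb2* (-0.46) and *Shisa4* (-0.44) did not pass either (adjusted p = 0.194, 0.174 and 0.245, edgeR), and *Elf5* stood at 0.25. Other large falls were *Bglap3* (-3.72) and *Atp4a*, a gastric proton pump subunit (-3.05). *Bglap3* has near-identical copies and is uncertain for that reason. Without caloric restriction mouse 1 neither passed (adjusted p = 0.111 and 0.132, edgeR), although *Bglap3* still stood at -3.17 and *Atp4a* was at 0 in the restricted mouse left. Within the 4 pool mice *Atp4a* was as low (-3.04) but did not pass (adjusted p = 0.132, edgeR). With cells carrying other types' markers left out, the log2 change of *Bglap3* was as large (-3.82) but did not pass (adjusted p = 0.191, edgeR).

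Genes of amino acid supply were also among those that fell. In that list 5 of 16 tested genes fell and 0 rose, against 1.43% lower of all genes, and the median log2 change was -0.67, with 3 of 16 above 0. *Asns* was found at 64.3 and 53.4 CPM under restriction, against 152, 160 and 245, a log2 change of -1.38 (SE 0.26, adjusted p = 0.00174, edgeR). *Slc7a5* was found at 81.6 and 61.1, against 182, 205 and 200, a change of -1.37 (SE 0.24, adjusted p = 0.000898, edgeR). Both restricted mice were below every control mouse for each gene. *Phgdh*, *Psat1* and *Psph*, the enzymes that make serine from a glycolytic intermediate, changed by -1.12, -1.22 and -1.18 (adjusted p = 0.0108, 0.0293 and 0.0114, edgeR). *Atf4*, a transcription factor that drives these genes in many cells, stood at 0.05 (adjusted p = 0.966, edgeR).

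Outside these lists, and chosen after their values were seen, *Mthfd2* of one-carbon metabolism changed by -1.26 (adjusted p = 0.0107, edgeR), and *Pck2* and *Cbs* by -1.08 and -1.54. In the RefSeq windows of 17 genes of the amino acid list, TGATGNAA, the letters of an amino acid response element, was found in 4 (*Slc7a11*, *Asns*, *Chac1* and *Pycr1*) on either strand, against 3.45% of all windows. In *Asns* (chr6:7675169-7693254) it began 23 bases before the start. It is a description of letters only.

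Some genes of the secretory machinery and of other secreted proteins fell, read against 1.43% lower of all genes. In the ER folding list 3 of 24 fell (*Ero1lb*, *Serp1* at -0.76 and *Fkbp2* at -0.70) and 0 rose, with a median of -0.23. In the translocation list 1 of 21 fell (*Sec11c*, -0.79) and the median was -0.37, with 2 of 21 above 0. Among other secreted proteins 4 of 17 fell, namely *Serpine2*, *Qsox1*, *Ggt1* and *Timp1*. *Timp1*, an inhibitor of metalloproteinases, was found at 273 and 221 CPM, against 774, 820 and 887, with no overlap between the groups, and changed by -1.62 (SE 0.24, adjusted p = 0.000486, edgeR). None of the 17, 22 and 35 tested genes of the unfolded protein response, glycosylation and vesicle lists passed. *Hspa5* stood at 0.54 (adjusted p = 0.165, edgeR). *B2m* was found at 5364 and 3970 CPM, against 9000, 9165 and 17328, and fell by 1.18 on the log2 scale (adjusted p = 0.0190, edgeR).

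**Figure D4:**
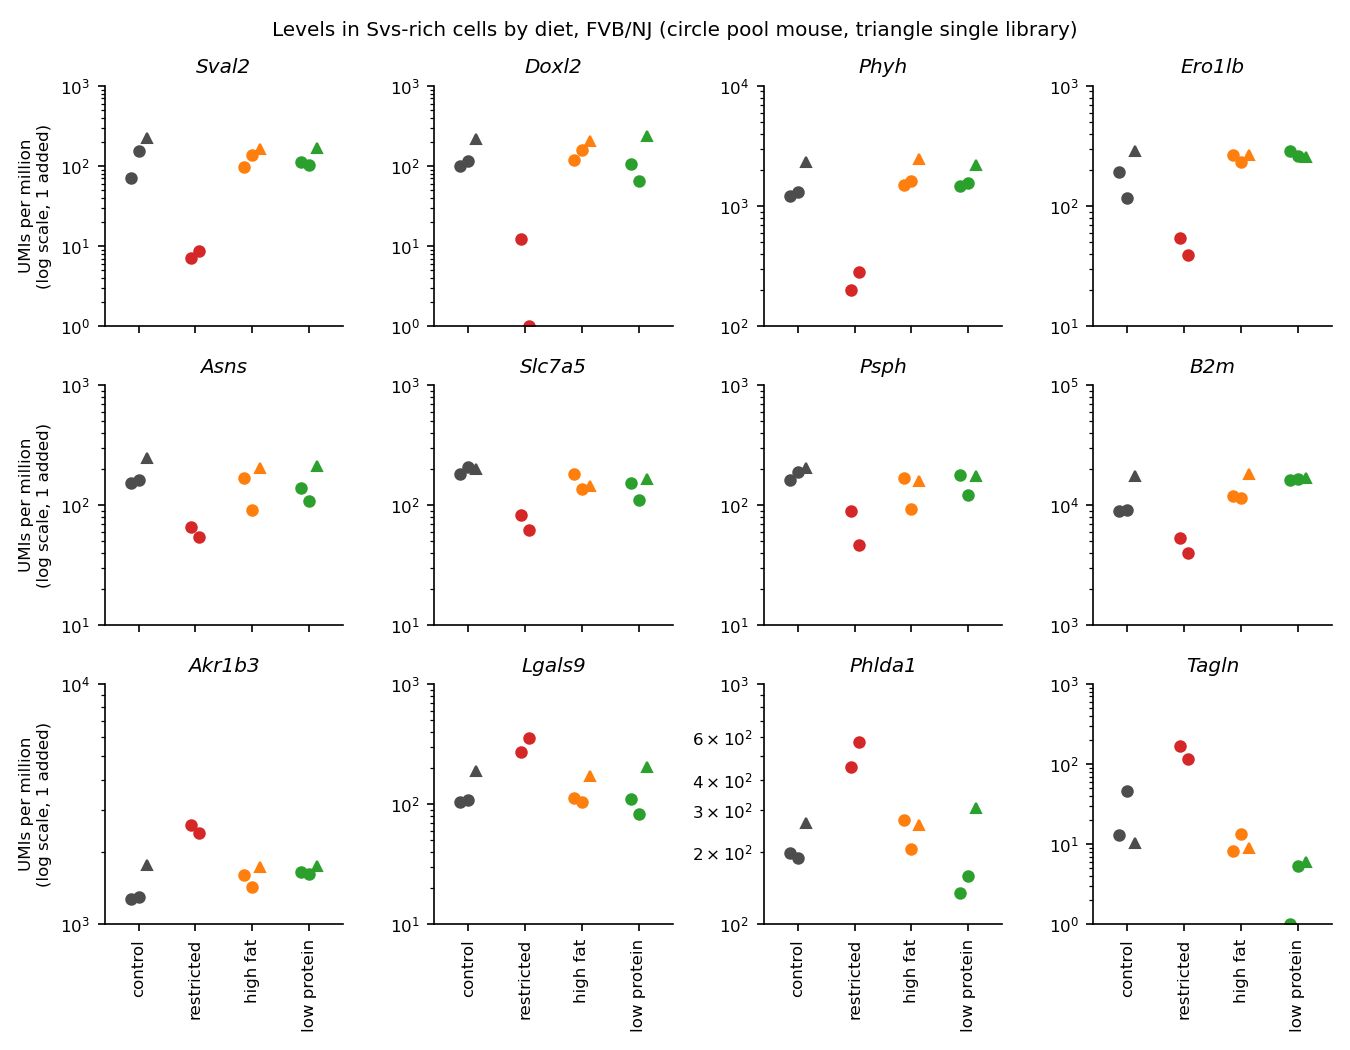
Level of 12 genes in Svs-rich cells of each FVB/NJ mouse by diet, in CPM without the products on a log scale, with 1 added. Circles are mice of the diet pool and triangles are single libraries. The 2 caloric restriction mice lie below all control mice for *Sval2*, *Doxl2*, *Phyh*, *Ero1lb*, *Asns*, *Slc7a5*, *Psph* and *B2m* and above them for *Akr1b3*, *Lgals9*, *Phlda1* and *Tagln*.

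The genes that rose under restriction, 0.785% of all genes tested, included some from the marker lists of other cell types. *Akr1b3*, the aldose reductase of the fructose pathway, was found at 2577 and 2405 CPM, against 1277, 1293 and 1758. The groups did not overlap, and it rose by 0.79 on the log2 scale (SE 0.14, adjusted p = 0.00111, edgeR). In the same hexose list *Bpgm* and *Pgp* fell, so that 1 of 14 rose and 2 fell. *Lgals9*, a galectin, was found at 269 and 351, against 104, 107 and 186, and rose by 1.43 (SE 0.20, adjusted p = 4.33e-05, edgeR). *Phlda1* was found at 451 and 573, against 197, 187 and 262, and rose by 1.31 (SE 0.21, adjusted p = 0.000322, edgeR). Both were higher in the restricted mice than in all 3 control mice. In the interferon and antigen presentation list 3 of 17 tested genes rose (*Irf1*, *Psmb8* and *Bst2*) and 1 fell (*B2m*). In the redox list 1 of 21 rose (*Prdx6*, 0.60) and in the cytokine list 1 of 18 (*Cxcl16*, 1.17), and 0 fell. *Lgals9* and *Phlda1* were chosen after their values were seen.

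Genes of dissociation and stress are given beside this comparison. All 21 tested genes of that list had a log2 change above 0, with a median of 0.72 against 0.01 over all genes. Of the 21, 1 passed (*Klf4*, 1.02), against 0.785% higher of all genes tested. The list, in which *Hspb1* was the most abundant gene, summed to 21068 and 26604 CPM in the restricted mice, 16540 and 14701 in the control pool mice and 19343 in the control single library, so the groups did not overlap. Its part in the other changes was not tested.

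The largest rises under restriction included a gene of the smooth muscle marker list. *Tagln*, an actin-binding protein of smooth muscle, was found at 168 and 115 CPM, against 12.0, 44.6 and 9.38, and rose by 3.48 (SE 0.38, adjusted p = 1.22e-06, edgeR). *Ramp1*, a subunit of the receptor for calcitonin gene-related peptide, was found at 119 and 214, against 29.7, 44.6 and 23.4, and rose by 2.58 (SE 0.36, adjusted p = 0.00034, edgeR). Neither overlapped. *Ctla2a* (4.54), *Lgals1* (2.73) and *Ddit4l* (2.65) completed the 5 largest rises among genes with a mean of at least 20 CPM. However, *Lgals1* overlapped with control pool mouse 2, and *Ctla2a* was found at 85.7 CPM in caloric restriction mouse 1 and 7.63 in mouse 2. Without caloric restriction mouse 1 the log2 changes of *Ctla2a*, *Lgals1* and *Ddit4l* were 1.26, 1.79 and 1.25. Within the 4 pool mice *Lgals1* and *Ddit4l* stood at 2.20 and 1.89 but did not pass (adjusted p = 0.368 and 0.268, edgeR).

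Of 4 tested smooth muscle markers 1 passed (median log2 change 2.80), of 4 fibroblast markers 2 passed (*Col1a1* 4.14 and *Col1a2* 2.55), and the 4 red cell markers had a median of 3.68 with none past the threshold. Schwann cell markers summed to 389 CPM in caloric restriction mouse 2, 2.04 in mouse 1 and at most 2.34 in the control mice, and the 1 tested gene of that list did not pass. In caloric restriction mouse 2, where *Tagln* stood at 115 CPM, the smooth muscle markers *Acta2* and *Cnn1* were found at 7.63 each and *Myh11* and *Des* at 0, while mouse 1 had *Acta2* at 134 and all 5 markers above 0. Fibroblast markers summed to 389 CPM in caloric restriction mouse 1 and 481 in control pool mouse 2. The 2 restricted mice contributed 88 and 15 Svs-rich cells. When cells with at least 2 UMIs of other types' markers were left out, 110 genes passed, 80 of them shared with the 144. Among these, *Sval2* changed by -3.64, *Doxl2* by -3.10 and *Ramp1* by 3.18. *Tagln* did not pass when the Svs limit was set at 15% (log2 change 2.64, adjusted p = 0.213, edgeR). The part of RNA from other cells in any of these rises was not tested.

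The high fat diet was compared over 3 mice on each diet. None of 6498 genes (0%) passed an adjusted p of 0.05 in edgeR's quasi-likelihood test, 104 had an unadjusted p under 0.05, and DESeq2 called 0. The genes with the lowest p were *Pate9* (log2 change 0.83, adjusted p = 0.697, edgeR), *Col18a1* (-1.05) and *Bglap3* (1.24). Without the high fat single library 1 gene passed, *Bglap3* (1.68, adjusted p = 2.28e-05, edgeR).

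The low protein diet gave 0 of 6498 genes (0%) past the threshold in edgeR and 0 in DESeq2, with 145 at an unadjusted p under 0.05. The 3 genes with the lowest p were *H3f3b* (-0.44), *Dst* (-1.04) and *Tpm1* (-0.71). Without the low protein single library 6 genes passed, among them *Tpm1* (-1.11, adjusted p = 0.0268, edgeR). The differences between the diets' effects were not tested.

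Age was fitted over the 10 mice of the aging pool as a trend per 25 months, the span of the ages, with rapamycin as a term. Of 6695 genes 1 passed (0.0149%) in edgeR's quasi-likelihood test, and 324 had an unadjusted p under 0.05. DESeq2 called more genes for age, as given with the processing below. The gene that passed in edgeR was *Chn2* (ENSMUSG00000004633, chr6:54039554-54301810), beta-chimaerin, which switches off Rac. It was found at 42.9 and 66.2 CPM at 3 months, 13.6 and 21.9 at 20 months and 9.00 and 8.59 at 28 months without rapamycin. Prostate-like and basal markers had median age trends of -2.10 and -1.08, with 0 past the threshold, and their part was not tested. Among the untreated mice the ages did not overlap for *Chn2*, but they did once the treated mice, given below, were included. Over all 10 mice *Chn2* fell by 2.69 per 25 months on the log2 scale (SE 0.38, adjusted p = 0.00924, edgeR). Without 3-month mouse 2 it stood at -2.47 (adjusted p = 0.0905, edgeR), and with the Svs limit at 50% it was -1.73 and did not pass.

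No antigen presentation gene passed the test for age. *Cd74*, the invariant chain of MHC class II, was found at 871 and 1076 CPM at 28 months without rapamycin. It was found at 87.0 and 100 at 3 months, 71.3 and 150 at 20 months, 137 and 52.1 at 20 months with rapamycin and 147 and 166 at 28 months with rapamycin. Both untreated 28-month mice were above all 8 others, but the age trend of 3.23 did not pass (adjusted p = 0.672, edgeR). The class II genes *H2-Aa* and *H2-Ab1* had 3.81 and 3.25 with the same adjusted p. In the interferon and antigen presentation list 18 of 20 genes had an age trend above 0 (median 0.78) and 0 passed, while the summed level was 14092 and 13477 CPM in the untreated 28-month mice against 11721 and 18784 at 3 months. In the same list 0 of 20 had a rapamycin effect above 0 (median -0.73). Macrophage markers had medians of 2.29 for age and -1.74 for rapamycin, and they summed to 266 and 155 CPM in the 2 untreated 28-month mice. B cell markers summed to 17.99 and 45.1 in these mice and to at most 3.56 in the other 8, and both tested T and NK cell markers had an age trend above 0 (median 1.29). The part of these cell types in the class II levels was not tested. *Timp1* was found at 3672 CPM in 28-month mouse 1 and at most at 291 in the other 9 mice.

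Rapamycin was compared at 20 and 28 months within the same fit. In edgeR's quasi-likelihood test 4 of 6695 genes passed, all higher (0.0597%), of which 3 rose that the rule had not used, with 390 at an unadjusted p under 0.05. *Agr2*, a disulfide isomerase of the ER in mucus-secreting and other glandular cells, was found at 84.3 and 89.4 CPM at 20 months and 84.1 and 102 at 28 months with rapamycin. Without it, levels were 6.79 and 31.1 at 20 months, 7.20 and 15.0 at 28 months and 54.9 and 53.7 at 3 months. All 4 treated mice were above all untreated ones, and *Agr2* rose by 2.32 on the log2 scale (SE 0.33, adjusted p = 0.0321, edgeR). It did not pass without 20-month rapamycin mouse 1, either untreated 28-month mouse, 28-month rapamycin mouse 1 or 3-month mouse 2 (adjusted p = 0.0524 to 0.113, edgeR).

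*Chn2* was found at 111 and 62.3 CPM at 20 months and 28.5 and 27.3 at 28 months with rapamycin, above the untreated mice of the same age, and rose by 1.89 (SE 0.31, adjusted p = 0.0331, edgeR). *9530002B09Rik* was found at 569 and 682 at 20 months and 305 and 199 at 28 months with rapamycin, against 37.3 and 99.6 and then 28.8 and 32.2 without it. It rose by 3.08 (SE 0.38, adjusted p = 0.0455, edgeR), and its levels in the 3-month mice, 123 and 284, overlapped with those of treated mice. The remaining gene was *Pbsn*, which the rule held down, so its levels are a description. They were 722 and 782 at 20 months and 331 and 226 at 28 months with rapamycin, and 59.4, 167, 45.0 and 51.5 without it.

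Prostate-like markers are given beside the rapamycin comparison as a description, since the rule capped *Tgm4*, the most abundant of them, and *Pbsn*. The summed markers of prostate-like cells were 2335 and 3616 CPM at 20 months and 1086 and 833 at 28 months with rapamycin, and 243 and 634, then 133 and 245, without it. At 3 months they were 734 and 1006. *Msmb* held 2382 CPM of the sum in 20-month rapamycin mouse 2 and at most 4.74 in the other 9 mice, and *Spink5* was at 0 in all 8 mice of 20 and 28 months. When cells with at least 2 UMIs of other types' markers were left out, no gene passed, and *9530002B09Rik* and *Chn2* stood at 0.38 and 1.24 (adjusted p = 1.00 each, edgeR), while *Agr2* was not among the genes tested. No gene passed when the Svs limit was set at 50%.

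**Figure D5:**
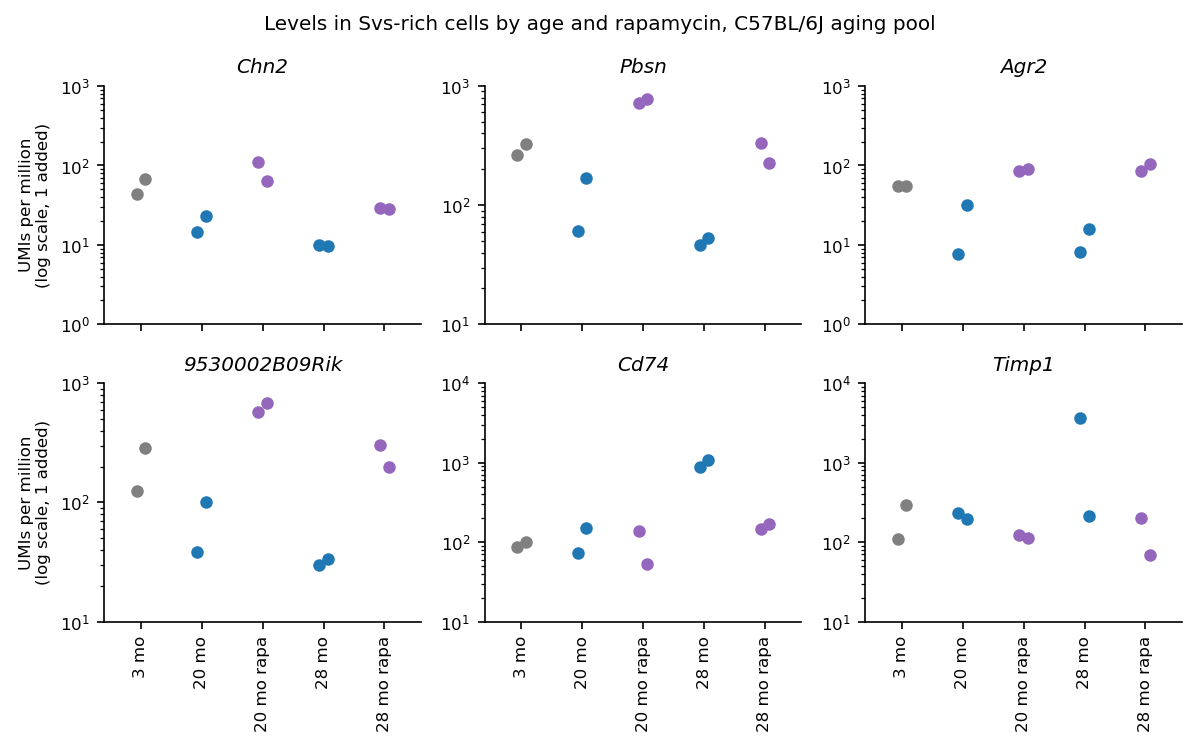
Level of 6 genes in Svs-rich cells of the 10 C57BL/6J mice by age and rapamycin, in CPM without the products on a log scale, with 1 added. *Chn2* is lowest at 28 months without rapamycin (9.00 and 8.59), *Cd74* is highest there (871 and 1076), and *Agr2* lies higher in all 4 mice given rapamycin than in the 6 others.

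The 3-month C57BL/6J mice on chow were compared with the FVB/NJ mice on the control diet of the diet pool. This comparison shares its control mice with the diets, and strain, chow and pool cannot be told apart. In edgeR's quasi-likelihood test 81 of 6069 genes passed (1.33%), 33 higher in C57BL/6J (0.544%) and 48 lower (0.791%). With libraries scaled by their totals alone the split was 40 and 41. Far fewer genes passed with DESeq2, with cells carrying other types' markers left out, or without certain single mice. Those counts are given with the processing below. *Cenpm*, a centromere protein, was found at 1.34 and 1.56 CPM in C57BL/6J and 108 and 62.4 in FVB/NJ, a log2 difference of -5.92 (SE 0.45, adjusted p = 9.45e-08, edgeR). *Chd9*, a chromatin remodeler, was found at 376 and 520, against 19.8 and 35.7, a difference of 4.29 (SE 0.33, adjusted p = 9.45e-08, edgeR). Neither overlapped between the strains.

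The other largest differences among genes with a mean of at least 20 CPM were lower *Gdpd3* (-4.21), *Mapk13* (-3.95), *1600014C10Rik* (-3.73) and *Eif3j2* (-3.12) in C57BL/6J. Higher there were *Igkc* (4.74), *H2-Eb1* (4.18), *Pkib* (4.13) and *Ramp1* (2.32). Apart from *Eif3j2*, none of these 8 passed without control pool mouse 1 (adjusted p = 0.0842 to 0.506, edgeR). Their directions were kept, with log2 differences of -3.91 for *Gdpd3*, -3.66 for *1600014C10Rik*, -2.33 for *Mapk13* and 1.92 for *Ramp1*, while *Igkc*, *H2-Eb1* and *Pkib* were at 0 in the control mouse left, so that no size is given. *H2-Eb1* also did not pass with the replicate block (3.89, adjusted p = 0.0936, edgeR) or an Svs limit of 15% (5.49). With marked cells left out *Pkib* (3.77) and *1600014C10Rik* (-1.99) did not pass. *Igkc*, an immunoglobulin chain, and *H2-Eb1*, of MHC class II, are genes of immune cells. *Igkc* was found at 21.4 and 54.5 CPM against 1.41 and 0, and *H2-Eb1* at 22.8 and 30.8 against 1.41 and 0, where 3 counts in control pool mouse 2 would be 26.7. Among the genes of highest ratio, *Shisa4* was found at 1122 and 1302 in C57BL/6J and at 432 and 499 in FVB/NJ, with no overlap. Its difference was 1.35 (SE 0.18, adjusted p = 0.000333, edgeR). *Tspan8*, a tetraspanin, was higher by 1.01 (adjusted p = 0.0108, edgeR) and *Gm1673* differed by -0.89 (adjusted p = 0.0183, edgeR). Of 79 ribosomal protein genes 10 were lower in C57BL/6J, against 0.791% of all genes. Control pool mouse 2, 1 of the 2 FVB/NJ control mice, held 3102 CPM of hemoglobin, 481 of fibroblast and 464 of macrophage markers, against 12.0, 117 and 26.1 in the other. The C57BL/6J mice held 2.68 and 3.12, 196 and 96.6, and 49.5 and 41.3, and the part of these markers in the strain comparison was not tested.

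More genes were called between the single libraries and the diet pool than in any other comparison. In the same fit as the diets, edgeR's quasi-likelihood test called 2055 of 6498 genes (31.6%), 926 higher in single libraries (14.3%) and 1129 lower (17.4%). With libraries scaled by their totals alone the split was 1439 and 890. The lowest count with 1 mouse left out was 1120, without the control single library. *Ptp4a1*, a phosphatase, was found at 229 to 258 CPM in the single libraries and at 0 to 16.1 in the diet pool, a difference of 4.50 (SE 0.21, adjusted p = 2.15e-17, edgeR). *Nxf1*, an mRNA export factor, was found at 155 to 204 against 8.80 to 30.5 and differed by 3.27, and *Selenoi* and *Slc24a5* differed by 2.44 and 2.47. *Ctla2a* (1.99) completed the largest rises among genes with a mean of at least 20 CPM. It stood at 85.7 CPM in caloric restriction mouse 1, however, and did not pass with DESeq2 (adjusted p = 0.115).

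In the other direction, *Atp6v0c*, a subunit of the vacuolar proton pump, was found at 0.690 to 1.30 CPM in the single libraries and at 196 to 417 in the diet pool, and differed by -8.64. *Rnasek* was found at 0.828 to 1.53 against 293 to 424 and *Gng10* at 0.185 to 0.340 against 61.1 to 134, with differences of -8.42 and -8.45. None of these genes overlapped between the library sets. In the single libraries 3 counts are 0.414 to 0.555 CPM, and *Gng10* lay below that, so the size of its difference is uncertain. *Defb50* had a larger difference still (-9.86), and 6 of 6 basal markers were lower, against 17.4% of all genes. Of the 4 red cell markers 1 passed (median -5.21), and the share of cells with at least 2 UMIs of other types' markers was 2.20% to 2.78% in the single libraries against 11.9% to 53.3% in the diet pool. That share depends on depth, and median UMIs outside the products were 1553 to 2331 per cell against 4393 to 11961. The libraries were counted with different Cell Ranger versions and references, and the part of that difference in these values was not tested.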

How the data were processed

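Single-cell libraries of the seminal vesicle were analysed from UMI counts. The authors deposited raw counts per gene and cell, with no normalization, and no reads were aligned again. Per the submitters' processing notes, Cell Ranger 3.1.0 and 6.0.1, Seurat and the mm10 genome were used. Mice within pools were identified from the table names and the deposited tag configurations. Genes were joined by Ensembl identifier (30406 in both references), and 12 tag features were left out. The members and the gene lists were chosen with earlier results of these data known.

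The 18 products were left out of the depth, which left 189730 to 2567550 UMIs per mouse in the aging pool, 112170 to 1415522 in the diet pool and 5400917 to 7250723 in the single libraries. UMIs of Svs-rich cells were summed for each mouse with at least 10 such cells, scaled with TMM, filtered with filterByExpr and tested with edgeR 4.0.16 (robust quasi-likelihood) in R 4.3.3 with limma 3.58.1, and p-values were adjusted by Benjamini-Hochberg over all genes tested. Diets were fitted with diet and library set, age and rapamycin together, and strain with 1 term per group. P-values measure the spread between mice. The fits were tested on simulated data. Alternatives were scaling by totals, no filter, DESeq2 1.42.0, other limits on the Svs share (15% and 50%), only the 4 Svs genes left out, cells with at least 2 UMIs of 35 other marker genes left out, only the mice of a comparison, a replicate block, each mouse left out, and, chosen after seeing the data, only mice with at least 20 Svs-rich cells. Doublets were not removed.

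Named genes were the 20 of highest mean level (ribosomal and mitochondrial genes apart), the 25 of highest median ratio among genes of at least 100 CPM, in each comparison the 5 largest rises and falls past an adjusted p of 0.05 with at least 20 CPM (or the 3 of lowest p where none passed), and genes of 30 fixed lists. Some genes that this rule names are not reported here. Gene positions came from GENCODE vM21 on GRCm38 and upstream windows of 250 bases from RefSeq. Python 3.11.15 was used with NumPy 2.4.6, pandas 2.3.3, SciPy 1.17.1 and matplotlib 3.10.9.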

Additional observations from a re-analysis of the deposited data

Results flagged for a closer look

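In 98 groups of mice (49 measures in each pool), the gap between the most extreme mouse and its nearest neighbour was set against the group's whole range, and 8 gaps were above Dixon's 95% critical value. Chance gives about 1 in 20 such groups. In the aging pool, 28-month mouse 1 without rapamycin had the highest *Fth1* at 12004 CPM (next mouse 7259, median 5044) and the highest *Eef1a1* at 6292 (next 5128), and the lowest *Dnase2b* at 990 (next 1856). The other untreated 28-month mouse had the highest *Ubb* at 8237 (next 6251) and the highest *Hspa5* at 7238 (next 4339). Within the diet pool, high fat mouse 2 had the highest *Pate8* at 758 (next 313). Caloric restriction mouse 2 had the highest *Elf5* at 489 (next 336) and the lowest share of Svs-rich cells, 4.09% of cells with at least 3000 UMIs (next 13.99%).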

How the results depend on the processing

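No named gene's value changed sign under an alternative in which it could be compared, but scaling by totals turned the balance of calls for caloric restriction and for library set. Without the filter on low counts, the counts of genes past the threshold moved to 3 for the high fat diet, 5 for the low protein diet, 295 for caloric restriction (against 144), 138 for age, 88 for rapamycin and 168 for strain (against 81). DESeq2 gave 203, 11, 9 and 33 for caloric restriction, age, rapamycin and strain. With an Svs limit of 50%, 1 gene passed for the low protein diet and 0 for age and for rapamycin, and with one of 15%, 2 passed for rapamycin. With cells carrying other types' markers left out, 0 passed for rapamycin and 34 for strain. With only the mice of a comparison, counts were 1 for the low protein diet, 23 for caloric restriction, 2 for age and 51 for strain. With only mice of at least 20 Svs-rich cells, chosen after seeing the data, they were 3 for the low protein diet, 4 for age and 0 for rapamycin, and for caloric restriction 145, of which 85 were shared with the 144. With only the 4 Svs genes left out of the depth, 13 genes had a median ratio of at least 10, against 29.

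With each mouse left out in turn, counts ran from 0 to 1 for the high fat diet (1 without its single library), 0 to 6 for the low protein diet (6 without its single library), 59 (without the control single library) to 183 (without control pool mouse 2) for caloric restriction, 1 to 6 for age (6 without 20-month mouse 2) and 0 to 5 for rapamycin. Rapamycin had 0 without 20-month rapamycin mouse 1, 28-month mouse 1, 28-month mouse 2, 28-month rapamycin mouse 1 or 3-month mouse 2. Caloric restriction had 86 without control pool mouse 1 and 80 without the high fat single library. Strain ran from 21 (without control pool mouse 1) to 100 (without caloric restriction mouse 2), with 27 without 3-month mouse 2 and 47 without control pool mouse 2, and library set from 1120 (without the control single library) to 2457 (without caloric restriction mouse 2).

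Of the values of named genes, 24 of 209 for caloric restriction, 2 of 21 for age, 40 of 83 for rapamycin, 15 of 201 for strain and 9 of 216 for library set no longer passed. Genes that were filtered out or had no adjusted p under an alternative are missing from these totals. With marked cells left out these were, among others, *Tagln*, *Ctla2a* and *Lgals1* for caloric restriction and *Igkc* and *H2-Eb1* for strain. *Bglap3* passed for the high fat diet without the filter (1.24, adjusted p = 3.1e-08, edgeR) and without the high fat single library (1.68, adjusted p = 2.28e-05, edgeR), and *Tpm1* for the low protein diet without its single library (-1.11, adjusted p = 0.0268, edgeR). The causes were not tested.

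Mice with the same replicate number did not deviate together. Their correlations over 2452 genes ran from -0.370 to 0.149 in the aging pool (20 pairs) and from -0.300 to 0.166 in the diet pool (12 pairs). The 2 mice of a group deviate from its mean by opposite amounts, so each value counts for 2 pairs and fewer values are distinct. The numbers were not taken to pair the mice. With the number as a replicate block, counts were 0 for the high fat diet, 0 for the low protein diet, 166 for caloric restriction (143 shared), 1 for age, 4 for rapamycin, 64 for strain and 2070 for library set. Depth limits the smallest samples most. In caloric restriction mouse 2 and control pool mouse 2, 3 counts are 22.9 and 26.7 CPM, so that lower levels could not be told from 0.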
